A study of Mus musculus with 2 samples.

Results

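The 9 genes described here encode the NF-kB transcription factor subunits and a group of regulators listed as inhibitors. The subunits are Nfkb1 (p105, processed to p50), Nfkb2 (p100, processed to p52), Rel (c-Rel), Rela (p65) and Relb. The inhibitors are Nfkbia (IkB alpha), Nfkbie (IkB epsilon), the nuclear IkB protein Nfkbid (IkBNS) and Tnfaip3 (A20, a ubiquitin-editing enzyme that shuts down signalling to NF-kB). They were taken as a list by gene symbol, are 9 of the 32285 genes of the deposited expression table, and were all found in it. Each was followed through the authors' 17 cell clusters, numbered 0 to 16, and between the 5XFAD and the WT library.

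Colons of female mice aged 9 months were dissociated, and live CD45+ cells, which are leukocytes, were collected by flow sorting. 5XFAD is a transgenic mouse line in which the neuronal Thy1 promoter drives mutant human genes of familial Alzheimer disease, and WT littermates without the transgenes were its controls. Each genotype is represented by 1 library made from the pooled cells of 3 mice and profiled by droplet single-cell RNA-seq, which counts transcript molecules by unique molecular identifiers (UMIs) read from the 3′ end. With a single library on each side no test between the genotypes was made, and each 95% interval given below covers counting error only, not the differences between mice or preparations. Intervals of levels and ratios treat UMIs as independent, so they also leave out differences between cells.

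Each library held 3443 cells, with a total of 18604847 UMIs and a median of 5209 per cell in 5XFAD, and a total of 17939499 and a median of 4938 in WT. The cell with most genes had 2498 in 5XFAD and 2697 in WT, and 0 cells of 5XFAD but 106 cells of WT had 2500 genes or more. The libraries shared 3 cell barcodes. Summed B cell markers lay between 4584 and 5770 CPM (UMIs scaled to a total of 1000000) in clusters 0 to 7 and between 53.9 and 536.9 CPM in clusters 8 to 16. Clusters 0 to 5 are treated together below and also singly. The leading 10 genes of cluster 4 include Mzb1, a plasma cell marker, and none of the B cell list. Those of clusters 1, 2, 3 and 5 hold none of the B cell list either. In cluster 4 the B cell markers summed to 4916 CPM. The plasma cell markers summed to 449 CPM in cluster 4, beside 409 CPM in cluster 0 and 3499 CPM in cluster 6. Cluster 5, with 119 cells in 5XFAD and 396 in WT, was led by Hspa1a, Hspa1b and Jun, which are heat shock and immediate early genes. By their leading genes and markers, cluster 8 was regulatory T cell-like (Foxp3), cluster 9 ILC2-like (Il5 and Il13), cluster 12 NK or ILC1-like (Ncr1 and Klrb1c), cluster 13 gamma delta T cell-like (Trdc) and cluster 16 ILC3-like (Il22), while clusters 6, 7, 10, 11, 14 and 15 are kept as numbers.

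NF-kB proteins wait in the cytoplasm as dimers bound to IkB proteins, or as the unprocessed precursors p105 and p100. Signals from antigen receptors, Toll-like receptors or TNF receptors activate the IkB kinase, IkB is degraded and the dimer enters the nucleus. Several of its target genes encode its own inhibitors, Nfkbia and Tnfaip3 among them, so transcripts of these genes are widely read as part of the negative feedback. In B cells c-Rel and p50 are abundant and serve survival and activation, and in the gut the pathway works in both lymphoid and myeloid cells.

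The stretches of DNA before the start sites were searched for the kappaB consensus, the DNA letters that NF-kB dimers are known to bind. Nfkb1 and Relb had no promoter entry. As examples, 4 stretches are shown, those of the inhibitors Nfkbia and Tnfaip3 and of the subunits Rel and Nfkb2, which hold several matches. They are the 250 bases before the start annotated in RefSeq, 5′ to 3′ on the gene's strand, on build GRCm38.p6. Capitals mark each match on either strand, overlapping matches run together. Nfkbia lies on the minus strand, at chr12:55492648-55492897 for these bases, Tnfaip3 (first of its annotated starts) on the minus strand at chr10:19015411-19015660, Rel on the minus strand at chr11:23770970-23771219 and Nfkb2 (first start) on the plus strand at chr19:46304487-46304736.
Nfkbia: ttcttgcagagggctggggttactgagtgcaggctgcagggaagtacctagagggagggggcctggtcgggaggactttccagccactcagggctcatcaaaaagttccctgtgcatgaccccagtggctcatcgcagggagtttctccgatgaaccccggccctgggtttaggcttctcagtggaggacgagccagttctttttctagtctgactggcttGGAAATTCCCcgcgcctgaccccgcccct
Tnfaip3: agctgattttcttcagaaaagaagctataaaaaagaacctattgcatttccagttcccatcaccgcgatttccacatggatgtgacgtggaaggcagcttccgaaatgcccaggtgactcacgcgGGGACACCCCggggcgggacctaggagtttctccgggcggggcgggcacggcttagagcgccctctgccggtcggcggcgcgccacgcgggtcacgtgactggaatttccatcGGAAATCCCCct
Rel: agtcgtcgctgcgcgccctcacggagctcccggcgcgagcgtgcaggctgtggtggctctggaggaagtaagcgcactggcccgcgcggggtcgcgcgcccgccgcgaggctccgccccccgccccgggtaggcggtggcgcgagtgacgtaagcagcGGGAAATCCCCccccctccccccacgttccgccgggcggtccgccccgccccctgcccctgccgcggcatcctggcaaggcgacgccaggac
Nfkb2: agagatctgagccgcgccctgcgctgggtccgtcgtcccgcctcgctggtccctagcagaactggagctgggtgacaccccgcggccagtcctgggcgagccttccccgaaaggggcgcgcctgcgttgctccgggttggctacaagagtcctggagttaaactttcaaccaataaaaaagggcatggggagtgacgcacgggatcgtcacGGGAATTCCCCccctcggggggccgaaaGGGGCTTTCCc
The match of Nfkbia spans bases 29 to 20 before its start. Tnfaip3 has one at bases 125 to 116, and another at bases 12 to 3 before its start. Rel holds overlapping matches from base 92 to base 82, and Nfkb2 holds a group from base 39 to base 29 and a further match from base 11 to base 2. A match was present before a start of 6 of the 7 members with an entry in the promoter table, with Rela as the exception, while 8.23% of all 27025 genes held one before any of their starts, and 7.25% of all 32851 promoters of the same length held one. Among members with several starts, numbered along the gene, no match lay before start 2 of Tnfaip3 or starts 1 and 3 of Nfkbid. A match describes the letters of the window and is no measure of binding.

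In the annotation of the same genome (GENCODE on GRCm38) the 9 genes are protein-coding and lie on 7 chromosomes. Nfkb1 spans chr3:135584655-135691547, Nfkb2 chr19:46304320-46312385, Rel chr11:23736847-23770970, Rela chr19:5637483-5648130 and Relb chr7:19606217-19629438. Nfkbia spans chr12:55489410-55492647, Nfkbie chr17:45555703-45563169, Nfkbid chr7:30421732-30428746 and Tnfaip3 chr10:19000910-19015657. Starts in GENCODE and RefSeq can differ. The whole stretch shown for Nfkb2 and nearly all of that for Tnfaip3 lie inside these GENCODE spans, so their matches precede the RefSeq start only. Nfkb1 overlaps the gene model Gm43430 on its own strand, and Nfkb2 overlaps AC114539.1 and Psd on the other strand. How the authors' counting used strand is not given in the sources used here, so reads in those overlaps cannot be assigned with certainty.

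Levels across clusters are CPM of UMIs summed over a cluster and over both libraries, and since clusters were formed from the same transcripts, differences between clusters are a description. Rel had its 3 highest levels in clusters with B cell markers. Its level was 2372 CPM in cluster 7, 1694 in cluster 1 and 1532 in cluster 2, with intervals that did not overlap, and its lowest was 161 CPM in cluster 14, a 14.7-fold range. Clusters 5, 3, 6, 8 and 4, at 1202 to 1075 CPM, were neighbours in that order whose intervals overlapped. Nfkbid was also highest in cluster 7, and each of the remaining members had its highest level in a cluster from 8 to 16.

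Nfkb1, the p50 precursor, reached 1255 CPM in the ILC2-like cluster 9 and 708 CPM in the ILC3-like cluster 16, and its level was 122 to 211 CPM in clusters 0 to 5. The intervals of clusters 13, 8 and 12, at 542 to 528 CPM, overlapped. Nfkb2 lay between 40.0 CPM in cluster 14 and 215 CPM in cluster 16, and from cluster 16 down to cluster 0 each neighbour's interval overlapped the next. Rela had the narrowest spread of the subunits, from 35.2 CPM in cluster 4 to 139 CPM in cluster 16, a 3.93-fold range in which all neighbours overlapped. Relb, the partner of p52, ranged 4.57-fold from 40.0 CPM in cluster 6 to 183 CPM in the NK or ILC1-like cluster 12, again with every neighbour overlapping.

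Of the inhibitors, Nfkbia was highest in cluster 9 at 2082 CPM, apart from all others. It followed at 1579 CPM in cluster 15, a cluster led by Lyz2 and complement C1q genes, and at 1447 CPM in cluster 16, and stood at 152 to 220 CPM in clusters 0 to 5. Tnfaip3 had the widest range of the 9, 29.4-fold, from 41.3 CPM in cluster 1 to 1212 CPM in cluster 16. Its clusters 16, 12 and 9 overlapped at 1212 to 1169 CPM, and it stayed at or below 147 CPM in clusters 0 to 7. Nfkbid was highest in cluster 7 at 734 CPM, where it is itself among the 10 leading genes beside Egr2, Egr1, Egr3 and Myc, and next in cluster 9 at 333 CPM. Nfkbie reached 339 CPM in cluster 16, apart from the next at 203 CPM in cluster 12, and had its lowest level, 18.8 CPM, in cluster 14.

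**Figure D1:**
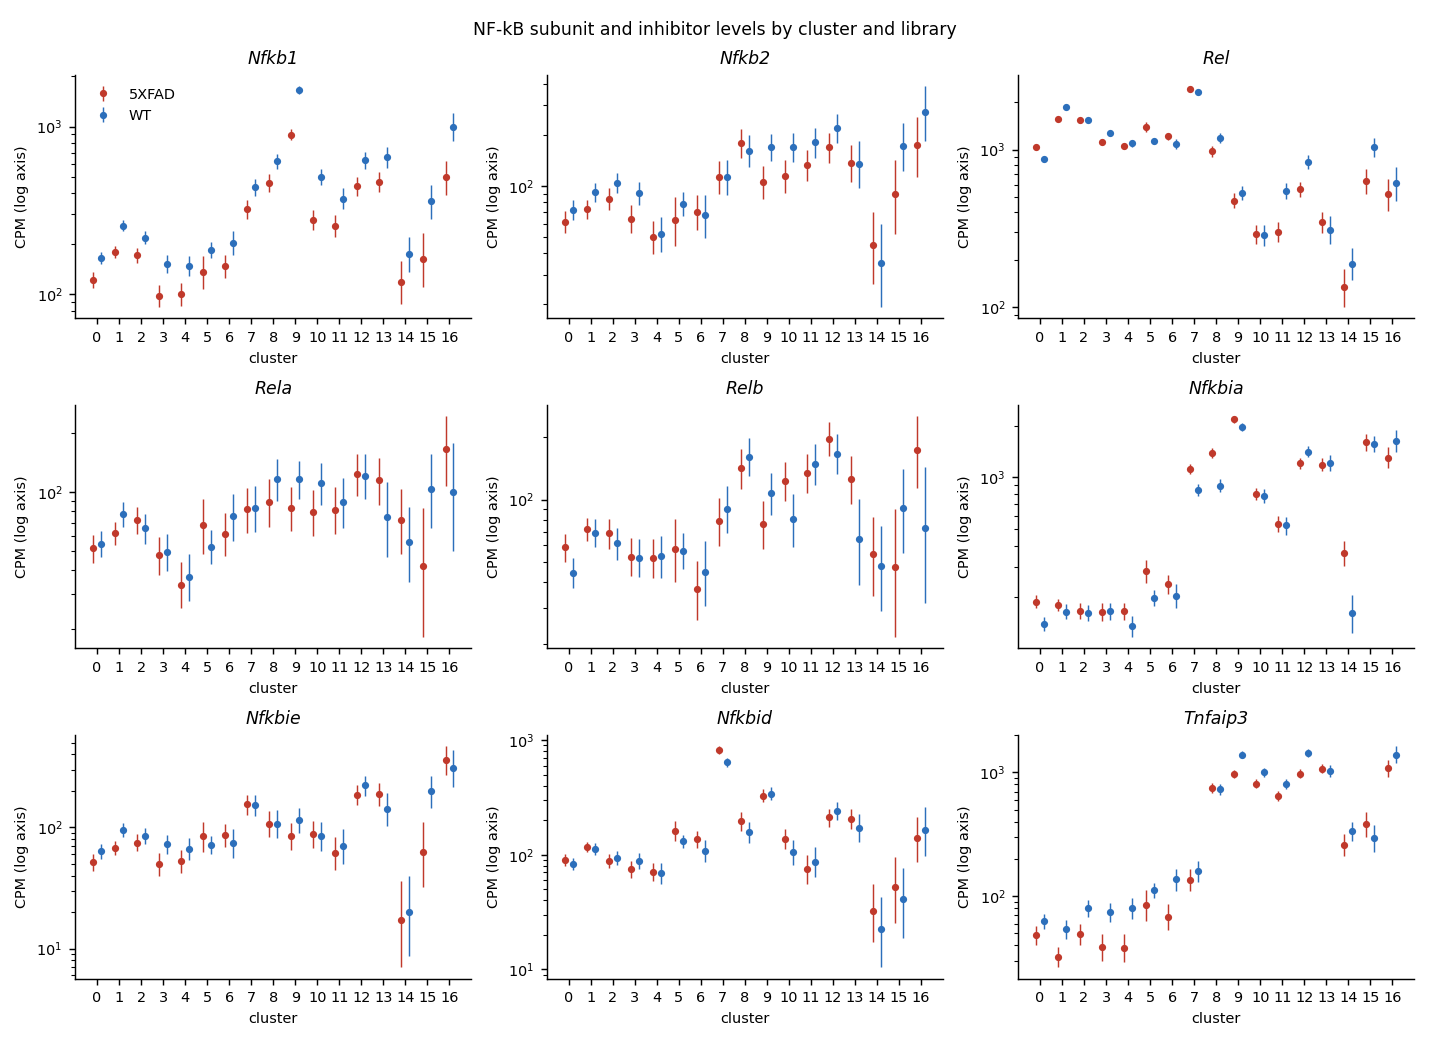
Level of each of the 9 genes (vertical axis, CPM, log scale) in clusters 0 to 16 (horizontal axis), with 5XFAD in red left of WT in blue; points are values of 1 library and bars are exact Poisson 95% intervals. Rel is highest in cluster 7 and Tnfaip3 and Nfkbia are low in clusters 0 to 5, and Nfkb1 has its 5XFAD point below its WT point in all 17 clusters.

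Over the 16 clusters with at least 50 cells, the levels of 8 members moved in the same direction. Pearson's r of log2(CPM + 1) was 0.89 between Nfkb1 and Nfkbia, 0.88 between Nfkb2 and Relb, and 0.87 between Nfkbia and Tnfaip3. Rel ran the other way, with r of -0.65 against Tnfaip3, -0.30 against Nfkbia and -0.24 against Nfkb1, and above 0 only with Nfkbid (0.37) and Nfkbie (0.33). These points share 2 libraries and differ in cell number, so the values describe the clusters and no more. Among 4547 other genes the pattern most like that of Nfkbia was that of Nfkbiz (r = 0.99), which encodes another nuclear IkB protein, followed by Gadd45b (0.97) and Ifrd1 (0.95). For Tnfaip3 it was that of Ctla2a (0.97), Lcp2 and Dok2 (both 0.96), and for Rel that of Syngr2 (0.94), Dazap2 and Far1 (both 0.92). For Nfkb1 it was that of Spty2d1 (0.93), Samsn1 and Elovl5 (both 0.92), and for Nfkb2 that of Zc3h12a and Hivep1 (both 0.93) and Bhlhe40 (0.92). For Rela it was that of Eif4g2 and Traf1 (both 0.94) and Tgoln1 (0.93), and for Relb that of Ptp4a2 (0.92), Golph3 and Nab1 (both 0.90). Nfkbie was nearest to Bcl2a1d and Hivep1 (both 0.89) and Cdc42 (0.88), and Nfkbid to Nr4a1 (0.85), Tgif1 (0.81) and Zrsr2 (0.78).

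The comparison of 5XFAD with WT addresses how gene expression of colon leukocytes differs between the genotypes. In clusters 0 to 5, Tnfaip3 was lower in 5XFAD. The ratio of Nfkb1 was -0.43, short of the threshold below, and the other 7 lay within about 0.3 of no change on the log2 scale. A member is counted as lower or higher where the log2 ratio of CPM, 5XFAD over WT, reached 0.5 in size with at least 50 UMIs over both libraries. By that rule 1 of 9 members was lower, beside 19.8% of the 9681 genes measured, and 0 of 9 were higher, beside 6.95%. The members' median log2 ratio was -0.05 and that of all genes -0.12, and 6 of 9 members lay below 0, beside 61.9% of genes. The shift of all genes means that values between 0 and -0.12 lie above the typical gene, and with the median of all genes set to 0 the ratios of Rela and Nfkbid in these clusters turned above 0, at 0.08 and 0.12, and that of Rel was 0.14. Taken singly by the same rule, 0 of 9 members were lower in cluster 0 (beside 18.3% of genes), 2 in cluster 1 (19.8%) and 1 in cluster 2 (13.9%). In cluster 3 the count was 4 (21.8%), in cluster 4 it was 2 (19.4%) and in cluster 5 it was 0 (21.9%). The higher members were 1 in cluster 5 (13.7%), and 0 in clusters 0 (11%), 1 (6.29%), 2 (8.62%), 3 (9.05%) and 4 (9.03%).

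Among the subunits, Nfkb1 was at 141 CPM in 5XFAD against 190 CPM in WT, from 1741 and 2408 UMIs, a log2 ratio of -0.43 (95% interval -0.52 to -0.35). It was below 0 in each of clusters 0 to 5, from -0.63 in cluster 3 to -0.35 in cluster 2. Nfkb2 was at 67.3 CPM in 5XFAD against 82.4 CPM in WT, a log2 ratio of -0.29 (-0.42 to -0.16). The ratio of Nfkb2 was below 0 in all 6 of these clusters, though in clusters 0, 4 and 5 its interval held 0.

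Rel was at 1301 CPM in 5XFAD against 1287 CPM in WT, a log2 ratio of 0.02 (-0.02 to 0.05). Clusters 0 to 5 pooled opposite values of Rel, with 1035 CPM in 5XFAD against 866 CPM in WT in cluster 0 (log2 ratio 0.26, 0.18 to 0.33), and 1573 CPM in 5XFAD against 1866 CPM in WT in cluster 1 (-0.25, -0.30 to -0.19). Without cluster 5, where Rel was at 1394 CPM in 5XFAD against 1139 CPM in WT, the pooled ratio was -0.02. Rela was at 55.8 CPM in 5XFAD against 57.7 CPM in WT, a log2 ratio of -0.05 (-0.20 to 0.10). Relb was at 62.3 CPM in 5XFAD against 55.6 CPM in WT, a ratio of 0.16 (0.02 to 0.31), with its highest value of clusters 0 to 5 in cluster 0, at 58.7 CPM in 5XFAD against 44.3 CPM in WT (0.41, 0.08 to 0.74).

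Among the inhibitors, Tnfaip3 was at 43.0 CPM in 5XFAD against 74.4 CPM in WT, from 533 and 943 UMIs, a log2 ratio of -0.79 (-0.95 to -0.64). All 6 clusters were below 0, the lowest being cluster 4 with 38.5 CPM in 5XFAD against 79.7 CPM in WT (-1.05, -1.52 to -0.59). In cluster 5 the interval of Tnfaip3 held 0 (-0.87 to 0.06). Nfkbia went the other way, with 181 CPM in 5XFAD against 160 CPM in WT, a log2 ratio of 0.18 (0.09 to 0.26). The clusters whose interval for Nfkbia lay above 0 were cluster 5, at 285 CPM in 5XFAD against 199 CPM in WT (0.52, 0.24 to 0.79), cluster 0 (0.44, 0.25 to 0.62) and cluster 4 (0.29, 0.02 to 0.56), and the intervals of clusters 1, 2 and 3 held 0.

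Nfkbie was at 61.6 CPM in 5XFAD against 76.0 CPM in WT, a log2 ratio of -0.30 (-0.44 to -0.16), with clusters 1 (-0.50) and 3 (-0.54) lowest and cluster 5 at 0.24. Nfkbid was at 96.1 CPM in 5XFAD against 96.7 CPM in WT, a ratio of -0.01 (-0.12 to 0.11). The summed level of 28 immediate early and dissociation genes, such as Fos and Hspa1a, was 6733 CPM in 5XFAD against 9117 CPM in WT in clusters 0 to 5, with a median log2 ratio of -0.47, and its part in the members' values was not tested.

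**Figure D2:**
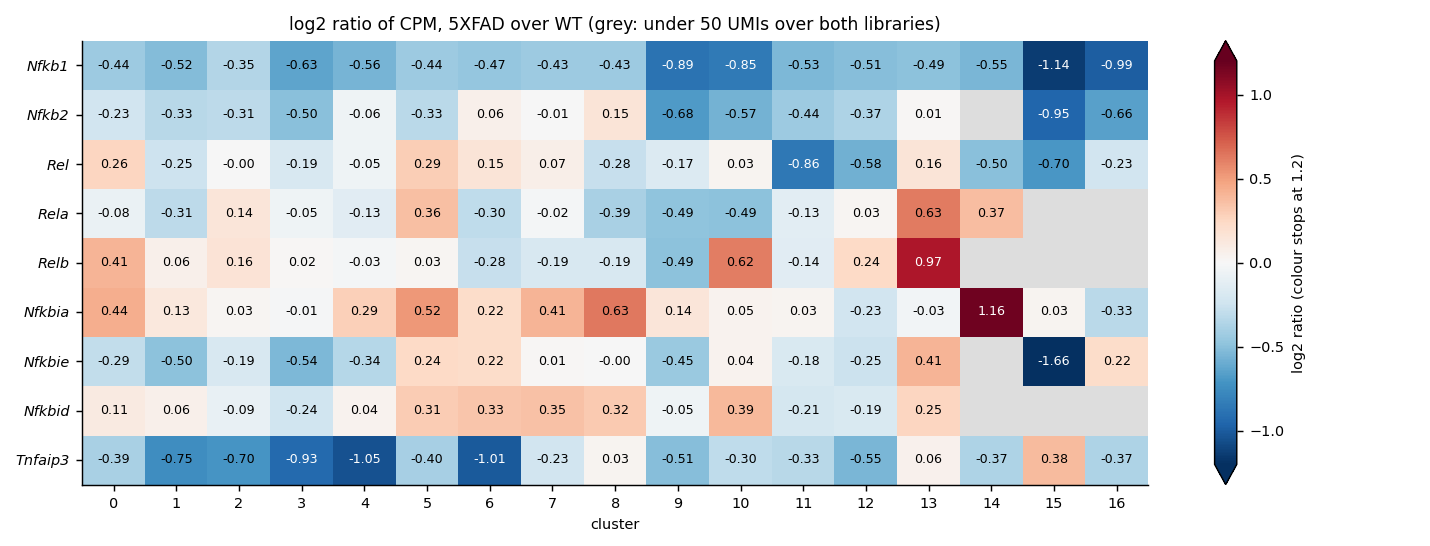
Heat map of the log2 ratio of CPM, 5XFAD over WT, with the 9 genes in rows and clusters 0 to 16 in columns; blue is lower and red higher in 5XFAD, grey cells had under 50 UMIs over both libraries, and colours no longer deepen past the ends of the bar. The Nfkb1 row is blue in all 17 clusters (-1.14 to -0.35), and the Nfkbia row is above 0 in 13 of 17.

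Followed over all clusters, Nfkb1 was lower in 5XFAD throughout. Its ratio was below 0 in all 17 clusters, from -1.14 in cluster 15 to -0.35 in cluster 2 with a median of -0.52. The interval lay below 0 in 16 of them, cluster 14 being the exception, and the ratio was at or below -0.5 in 10. Of 490 genes with at least 50 UMIs in every cluster, 46 (9.39%) were lower in 5XFAD in all 17, 90 (18.4%) were higher in all 17, and 17 (3.47%) were lower by at least 0.5 in at least 10. Over all cells Nfkb1 was at 217 CPM in 5XFAD against 311 CPM in WT, a log2 ratio of -0.51 (-0.57 to -0.46), and over clusters 8 to 16 it was at 430 CPM in 5XFAD against 703 CPM in WT (-0.71, -0.79 to -0.62).

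Tnfaip3 was below 0 in 14 of 17 clusters, with its interval below 0 in 11, and at or below -0.5 in 7. In cluster 6, which is led by Ighg2b, Jchain and Igha, it was at 67.9 CPM in 5XFAD against 137 CPM in WT (-1.01, -1.47 to -0.55), the 1 member of 9 counted lower there, beside 15.4% of genes, with 0 higher, beside 12.4%. Its ratio was 0.03 in cluster 8, 0.06 in cluster 13 and 0.38 in cluster 15, each with an interval that held 0. Nfkbia was above 0 in 13 of 17 clusters, with its interval above 0 in 7 and below 0 in 2, clusters 12 and 16. The share of all genes that reached such counts of 14 or 13 clusters was not computed.

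In the ILC2-like cluster 9, with 129 cells in 5XFAD and 108 in WT, 3 of 9 members were counted lower, beside 13.3% of the 3106 genes measured, and 0 higher, beside 9.95%. Nfkb1 was at 892 CPM in 5XFAD against 1654 CPM in WT (-0.89, -1.03 to -0.75). Nfkb2 was at 106 CPM in 5XFAD against 169 CPM in WT (-0.68, -1.11 to -0.25). Tnfaip3 was at 971 CPM in 5XFAD against 1387 CPM in WT (-0.51, -0.66 to -0.37), a value that moved to between -0.49 and -0.46 with another scaling, with the authors' second table or with equal weight per cell. Nfkbia, at 2179 CPM in 5XFAD against 1974 CPM in WT (0.14, 0.04 to 0.25), was the single member above 0 in this cluster, so that 8 of 9 lay below 0, beside 51.8% of genes, and the remaining 5 lay between -0.49 and -0.05. The dissociation list there was at 22956 CPM in 5XFAD against 23089 CPM in WT. Of its 25 measured genes 4 were lower and 4 higher, with a median of 0.08, and its part in these values was not tested.

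In the regulatory T cell-like cluster 8, with 133 cells in 5XFAD and 114 in WT, 1 of 9 members was higher, beside 10.6% of genes, and 0 lower, beside 14.2%. The higher one was Nfkbia, at 1392 CPM in 5XFAD against 897 CPM in WT (0.63, 0.47 to 0.80). Nfkb1 was at 460 CPM in 5XFAD against 622 CPM in WT (-0.43, -0.67 to -0.20) and Rel was at 977 CPM in 5XFAD against 1186 CPM in WT (-0.28, -0.44 to -0.12). The dissociation list was at 14393 CPM in 5XFAD against 14311 CPM in WT in this cluster. Of its 27 measured genes 6 were lower and 2 higher, with a median of -0.15, and its part in these values was not tested.

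In cluster 7, with 126 cells in each library, no member reached 0.5 in size, beside 21.6% of genes lower and 11.3% higher. Nfkbia was at 1122 CPM in 5XFAD against 846 CPM in WT (0.41, 0.25 to 0.56). Nfkbid was at 820 CPM in 5XFAD against 641 CPM in WT (0.35, 0.17 to 0.54), its one interval above 0 among the 14 clusters in which it was measured. Nfkb1 was at 321 CPM in 5XFAD against 433 CPM in WT in cluster 7 (-0.43, -0.69 to -0.18). Tnfaip3 was at 136 CPM in 5XFAD against 160 CPM in WT (-0.23, -0.64 to 0.18), and the ratio of Nfkbie was 0.01 (-0.39 to 0.42), so 2 of the inhibitors had an interval above 0 and the other 2 had one that held 0. The dissociation list in cluster 7 was at 13124 CPM in 5XFAD against 15710 CPM in WT, with 10 of its 25 measured genes lower, 2 higher and a median of -0.39, and its part in these values was not tested.

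In the NK or ILC1-like cluster 12, 3 of 9 members were lower, beside 14.3% of genes, and 0 higher, beside 9.20%. Rel was at 559 CPM in 5XFAD against 835 CPM in WT (-0.58, -0.80 to -0.36). Tnfaip3 was at 974 CPM in 5XFAD against 1427 CPM in WT (-0.55, -0.72 to -0.39). Nfkb1 was at 441 CPM in 5XFAD against 629 CPM in WT (-0.51, -0.76 to -0.27), and its ratio moved to -0.47 with the median of all genes set to 0 and to -0.50, inside the threshold, with equal weight per cell.

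Cluster 11, led by Klra6, Klra7 and Cd7, had 2 of 9 members lower, beside 11.3% of genes, and 0 higher, beside 10.7%. Rel was at 300 CPM in 5XFAD against 544 CPM in WT (-0.86, -1.13 to -0.59) and Nfkb1 was at 257 CPM in 5XFAD against 372 CPM in WT (-0.53, -0.84 to -0.23), and the ratio of Nfkb1 was -0.50, just inside the threshold, in the authors' second table. Rel is abundant in clusters with B cell markers, and B cell markers summed to 66.4 CPM in 5XFAD against 212 CPM in WT in cluster 11, and to 48.4 CPM in 5XFAD against 105 CPM in WT in cluster 12. Over clusters 8 to 16 that sum ranged from 33.3 to 372 CPM in 5XFAD and from 81.9 to 679 CPM in WT, with none of the 6 markers at 0 in both libraries except 1 in cluster 16, and its part in the values of Rel was not tested.

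Cluster 10, led by Il17a and Cd40lg, had 2 of 9 members lower, beside 15.4% of genes, and 1 higher, beside 9.68%. Nfkb1 was at 278 CPM in 5XFAD against 502 CPM in WT (-0.85, -1.12 to -0.59). Nfkb2 was at 114 CPM in 5XFAD against 170 CPM in WT (-0.57, -1.01 to -0.14), and its ratio was -0.26 after each cell was thinned to 3000 UMIs. Relb was at 123 CPM in 5XFAD against 80.1 CPM in WT (0.62, 0.10 to 1.15). In cluster 10 the ILC2 markers were at 975 CPM in 5XFAD against 1466 CPM in WT, lower for 2 of 3 measured, and the NK or ILC1 markers at 119 CPM in 5XFAD against 531 CPM in WT, lower for 2 of 2, and their part in the members' ratios was not tested. In the gamma delta T cell-like cluster 13, 2 of 9 were higher, beside 12.5% of genes, and 0 lower, beside 11.1%. These were Relb, at 126 CPM in 5XFAD against 64.3 CPM in WT (0.97, 0.20 to 1.80), and Rela, at 115 CPM in 5XFAD against 74.4 CPM in WT (0.63, -0.12 to 1.41), from 58 and 19 UMIs of Relb and 53 and 22 UMIs of Rela.

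The remaining clusters hold few cells, and several members had too few UMIs in them to be measured. In cluster 14, led by Dapl1 and Lef1, 1 of 5 measured members was higher, beside 9.62% of genes, and 1 lower, beside 17% of genes. Nfkbia was at 362 CPM in 5XFAD against 162 CPM in WT (1.16, 0.73 to 1.61), from 146 and 64 UMIs, the highest among the members' ratios in single clusters with at least 50 UMIs. Nfkb1, the lower one, was at 119 CPM in 5XFAD against 174 CPM in WT, with an interval that held 0. The dissociation list in cluster 14 was at 8472 CPM in 5XFAD against 9413 CPM in WT. Of its 24 measured genes 5 were lower and 2 higher, with a median of -0.15, and its part in these values was not tested.

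In cluster 15, 4 of 6 measured members were lower, beside 27.7% of genes, and 0 higher, beside 21%. They were Nfkbie, at 62.9 CPM in 5XFAD against 199 CPM in WT (-1.66, -2.72 to -0.72), Nfkb1 (-1.14, -1.79 to -0.52), Nfkb2 (-0.95, -1.87 to -0.09) and Rel (-0.70, -1.03 to -0.38), and the ratio of Rel was -0.33 without cells of 2500 or more genes. A single cell of cluster 15 held 26.4% of the Rel UMIs in 5XFAD, and a single cell held 12.3% in WT. Cluster 15 has 32 cells in 5XFAD and 37 in WT and mixes myeloid markers with stromal and epithelial ones. Its myeloid markers were at 5124 CPM in 5XFAD against 9973 CPM in WT, lower for 8 of 8 measured, while the stromal ones were at 1715 CPM in 5XFAD against 684 CPM in WT and the epithelial ones at 656 CPM in 5XFAD against 344 CPM in WT. Ptprc, which encodes the leukocyte marker CD45, was at 404 CPM in 5XFAD against 914 CPM in WT, and the part of this makeup in the members' ratios was not tested. In the ILC3-like cluster 16, 2 of 6 were lower, beside 14.5% of genes, and 0 higher, beside 19%. Nfkb1 was at 500 CPM in 5XFAD against 992 CPM in WT (-0.99, -1.43 to -0.55) and Nfkb2 was at 173 CPM in 5XFAD against 273 CPM in WT (-0.66, -1.47 to 0.15). A single cell held 20% of the Nfkb1 UMIs of this cluster in 5XFAD, and a single cell held 22.9% in WT. The ILC3 markers of cluster 16 were at 18074 CPM in 5XFAD against 3486 CPM in WT, higher for 2 of 2 measured with a median of 1.92. The dissociation list there was at 23454 CPM in 5XFAD against 26439 CPM in WT, with 7 of 21 measured genes lower and 1 higher. The part of both lists in the members' ratios was not tested.

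In clusters 0 to 5 the share of cells with at least 1 UMI was lower in 5XFAD for Nfkb1, Tnfaip3 and Nfkb2, with intervals that did not overlap. The share of Nfkbie was also lower. Shares rest on the same UMIs as the ratios and are no separate evidence. The intervals take the cells of 1 pooled library as independent, so their overlap or lack of it is no test between genotypes. For these shares each cell was first thinned to 3000 UMIs, which left 2327 cells of 5XFAD and 2454 of WT. Nfkb1 was found in 32.8% of 5XFAD cells (Clopper-Pearson 95% interval 30.9 to 34.8) and 40.3% of WT cells (38.4 to 42.3). Tnfaip3 was found in 11.1% of 5XFAD cells (9.84 to 12.4) and 17.4% of WT cells (15.96 to 19.0). Nfkbia was found in 37.7% of 5XFAD cells (35.8 to 39.7) and 34.0% of WT cells (32.1 to 35.9). Rel was found in 92.0% of 5XFAD cells (90.9 to 93.1) and 88.2% of WT cells (86.9 to 89.5), so the intervals of its share did not overlap although the interval of its pooled ratio held 0. Nfkb2 was found in 17.96% of 5XFAD cells (16.4 to 19.58) and 21.2% of WT cells (19.63 to 22.9). Nfkbie was found in 14.7% of 5XFAD cells and 17.9% of WT cells. The intervals of Nfkbia, Rela, Relb and Nfkbid overlapped between the libraries.

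As deposited, without thinning, Nfkb1 was found in 45.9% of 5XFAD cells and 54.7% of WT cells. Tnfaip3 was found in 17.01% of 5XFAD cells and 24.9% of WT cells, Nfkbia in 54.4% of 5XFAD cells and 47.1% of WT cells, and Rel in 96.6% of 5XFAD cells and 92.6% of WT cells. The median depths were 5086.5 UMIs in 5XFAD and 4783.5 in WT in these clusters. No cluster is known to lack the 9 genes, so the B cell gene Cd79a in clusters 8 to 16 was used as a measure of free RNA, and after thinning it was found there in 1.33% to 7.75% of cells in 5XFAD and 4.72% to 16.4% in WT. In clusters 0 to 5 the share of each member lay above that range in 5XFAD, while in WT those of Rela (15.6%) and Relb (14.96%) lay within it. The range is no floor for these genes, because Cd79a was far more abundant. Its level in clusters 0 to 5 of the WT library was 1772 CPM, that of Rela 57.7 CPM and that of Relb 55.6 CPM. Cells captured together were not searched for and could also carry Cd79a. The part of free RNA in the members' shares was not tested.

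**Figure D3:**
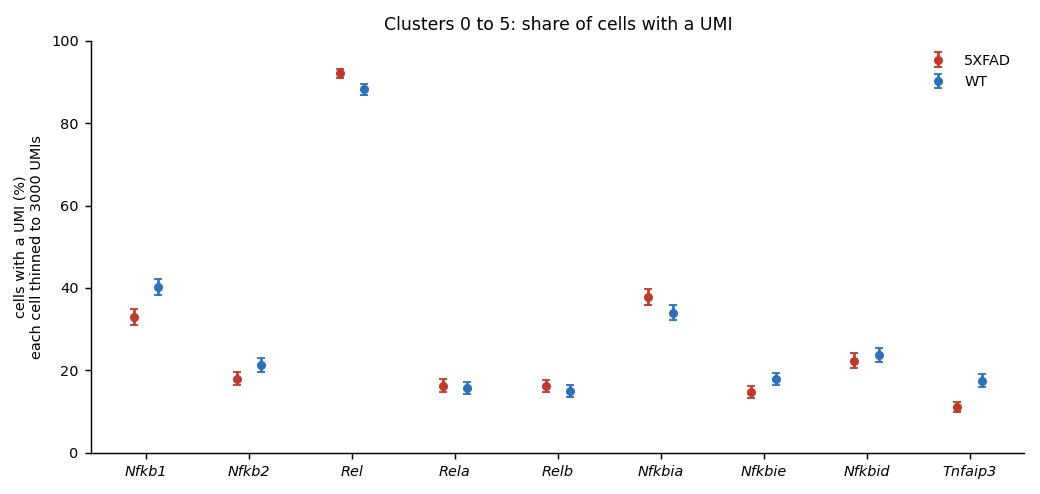
Share of cells in clusters 0 to 5 with at least 1 UMI of each gene (vertical axis, percent, each cell thinned to 3000 UMIs), with 5XFAD in red left of WT in blue; bars are Clopper-Pearson 95% intervals. Nfkb1 (32.8% in 5XFAD, 40.3% in WT), Nfkb2 (17.96% in 5XFAD, 21.2% in WT) and Tnfaip3 (11.1% in 5XFAD, 17.4% in WT) are lower in 5XFAD. Their intervals and those of Rel, which is higher, do not overlap between the libraries, while those of Nfkbia overlap. The intervals take the cells of a library as independent and are no test between genotypes.

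The genes around the members in the pathway were counted by their role. In clusters 0 to 5, 22 of 68 measured genes of 6 lists reached the lower threshold and 0 the higher, beside the 19.8% and 6.95% of all genes given above. Of the receptors that signal to NF-kB, 5 of the 9 measured of 17 listed were lower, with a median log2 ratio of -0.53. Tnfrsf13b (TACI, a receptor for BAFF and APRIL) was at 36.2 CPM in 5XFAD against 68.7 CPM in WT (-0.93, -1.09 to -0.76), Tlr4 had 18 UMIs in 5XFAD and 33 in WT (-0.84, -1.76 to 0.03), Cd40 was at 22.7 CPM in 5XFAD against 27.9 CPM in WT (-0.30, -0.53 to -0.07) and Tnfrsf1b was at 73.1 CPM in 5XFAD against 61.7 CPM in WT (0.24, 0.10 to 0.38).

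Of the genes that link the antigen receptor to NF-kB, 5 of the 7 measured of 8 listed were lower, with a median of -0.71. Bcl10, an adaptor between the antigen receptor and the IkB kinase, was at 175 CPM in 5XFAD against 130 CPM in WT (0.43, 0.33 to 0.52). Plcg1, a phospholipase, was at 5.01 CPM in 5XFAD against 10.7 CPM in WT (-1.10, -1.56 to -0.66), and the kinase Btk was at 118 CPM in 5XFAD against 98.6 CPM in WT (0.26, 0.15 to 0.37). Of the IkB kinase and its activators, 5 of 18 were lower, with a median of -0.35. Map3k14 (NIK, the kinase of p100 processing) was at 14.5 CPM in 5XFAD against 25.3 CPM in WT (-0.80, -1.08 to -0.54) and Traf3, which promotes its degradation, was at 18.1 CPM in 5XFAD against 30.5 CPM in WT (-0.75, -0.996 to -0.51). At the other end were Birc2 (0.21, 0.08 to 0.33) and Irak4 (0.17, -0.14 to 0.48).

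Of the ligands, 2 of the 3 measured of 7 listed were lower, with a median of -0.80. Ltb was at 130 CPM in 5XFAD against 228 CPM in WT (-0.80, -0.89 to -0.72), Lta was at 3.31 CPM in 5XFAD against 10.1 CPM in WT (-1.61, -2.15 to -1.09), and Tnf had an interval that held 0 (-0.41, -1.07 to 0.24). Further IkB proteins and negative regulators had 1 of 14 lower and a median of -0.08. Rnf31, a subunit of the linear ubiquitin ligase, was lowest (-0.52, -0.82 to -0.23), followed by N4bp1 (-0.41, -0.61 to -0.20), and Otulin, which cleaves linear ubiquitin chains, was highest (0.40, 0.33 to 0.48), followed by Nfkbib (0.33, 0.13 to 0.52). Known target genes other than the members had 4 of 17 measured genes lower, of 24 listed, and a median of -0.09. The chemokines Ccl3 (17 UMIs in 5XFAD and 47 in WT, -1.43, -2.33 to -0.61) and Cxcl2 (15 UMIs in 5XFAD and 38 in WT, -1.31, -2.28 to -0.41) were lowest. Slc2a6 (0.44, 0.02 to 0.86) and the anti-apoptotic Bcl2a1d (0.50, 0.35 to 0.65, just under the threshold) were highest, and reads of Bcl2a1d may be split with its near-identical paralogs.

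**Figure D4:**
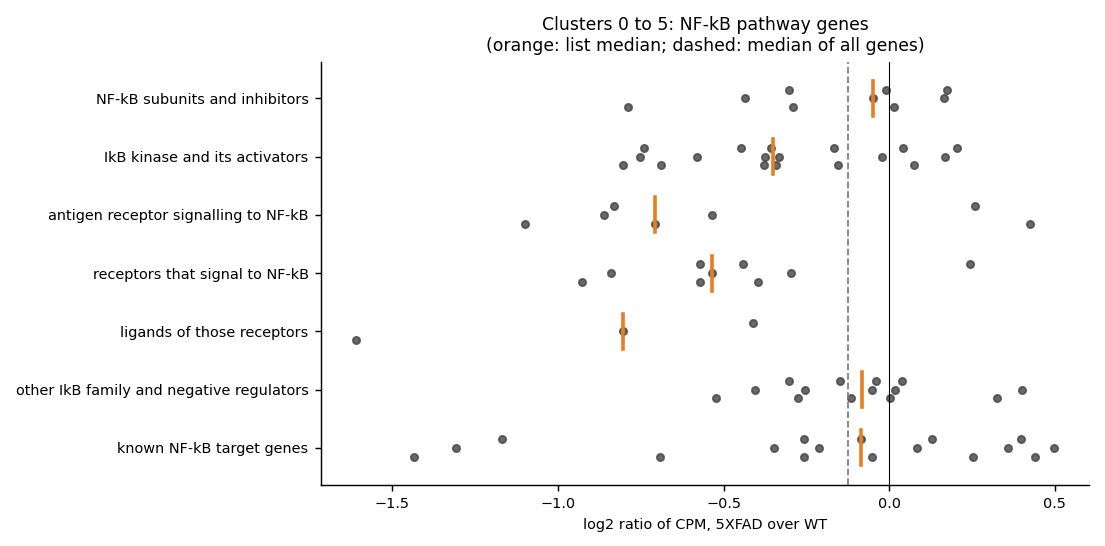
Log2 ratio of CPM, 5XFAD over WT (horizontal axis), in clusters 0 to 5 for the 9 members and the measured genes of 6 NF-kB pathway lists (rows); each point is a gene, orange bars are list medians and the dashed line is the median of all genes (-0.12). Medians lie lowest for ligands (-0.80) and antigen receptor signalling (-0.71), and near that of all genes for the members (-0.05) and target genes (-0.09).

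A further property moved with the ratios. The genes measured in clusters 0 to 5 were divided into 4 groups of like size by the length of their longest annotated transcript, and the median log2 ratio was 0.15 in the shortest group, -0.06 and -0.18 in the middle groups, and -0.36 in the longest. The share of genes counted lower was 8.13%, 14.7%, 21.9% and 34.4% in the same order. Nfkbia (1578 bases) and Nfkbid (2039 bases) were in the shortest group, Rela (2716 bases), Nfkbie (3006 bases) and Relb (3273 bases) in the next, Nfkb2 (3846 bases) and Nfkb1 (4149 bases) in the next, and Tnfaip3 (6199 bases) and Rel (7466 bases) in the longest. Beside the median of its own length group, Tnfaip3 (-0.79 beside -0.36), Nfkb1 (-0.43 beside -0.18), Nfkbie (-0.30 beside -0.06), Nfkbid (-0.01 beside 0.15) and Nfkb2 (-0.29 beside -0.18) lay below it. Rel (0.02 beside -0.36) and Relb (0.16 beside -0.06) lay above it, and Nfkbia (0.18 beside 0.15) and Rela (-0.05 beside -0.06) were close to it. In cluster 9 the medians of the length groups of genes measured there were 0.18, 0.03, -0.09 and -0.25, from shortest to longest. Nfkbia (0.14) was in the shortest group. Nfkbid (-0.05), Nfkbie (-0.45), Rela and Relb (both -0.49) were in the next. Nfkb2 (-0.68) and Nfkb1 (-0.89) were in the one after, and Rel (-0.17) and Tnfaip3 (-0.51) in the longest. The part of transcript length in the members' ratios was not tested.

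**Figure D5:**
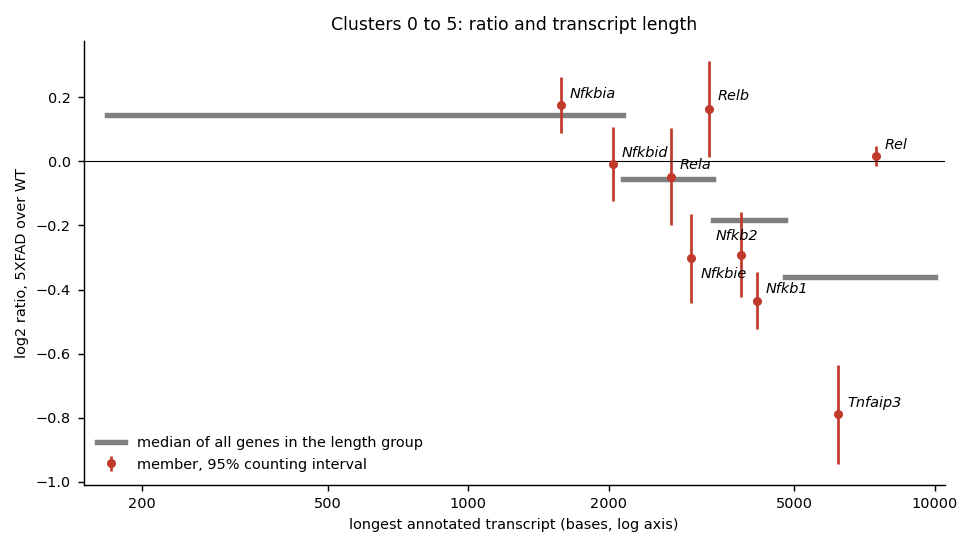
Log2 ratio of CPM, 5XFAD over WT, in clusters 0 to 5 (vertical axis) against the length of the longest annotated transcript (horizontal axis, bases, log scale) for the 9 genes, with 95% counting intervals; grey bars are medians of all genes in each length group, the last drawn only as far as the axis reaches. The grey bars step down from 0.15 to -0.36, the points of Tnfaip3, Nfkb1, Nfkbie, Nfkbid and Nfkb2 lie below the bar of their group, those of Rel and Relb above it, and those of Nfkbia and Rela close to it.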

How the data were processed

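Per the submitters' processing notes, reads were processed with Cell Ranger 6.0.1 on the mm10 genome; how cells were filtered and doublets treated later is not given in the sources used here, and no doublet caller was run. Values of the deposited expression table are natural logs, ln(1 + c), where c is the count per 10000 UMIs of the cell. Counts were recovered from it with the deposited UMI count of each cell, and 100% of 11758401 nonzero values were whole within 1e-06. A deposited metadata table gives the authors' cluster numbers, UMI counts and percent of mitochondrial UMIs; the library named AD there was taken as 5XFAD, the library that is not WT. A second deposited table (SCT, natural log values, 14128 genes) served as an alternative.

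UMIs were summed per cluster and library and divided by the total of the cluster to give CPM. Intervals at the 95% level are exact conditional binomial for ratios, exact Poisson for levels and Clopper-Pearson for shares. A ratio was given where both libraries together held 50 UMIs or more. Named genes were the 9 members, the 2 lowest and 2 highest measured genes of each pathway list in clusters 0 to 5, and for each member the 3 genes with the most similar levels (at least 50 CPM in their highest cluster; immunoglobulin, T cell receptor, ribosomal protein, mitochondrial, Gm and Rik genes left out). Shares were taken after each cell was thinned to 3000 UMIs, without the 60 shallower cells in 5XFAD and the 124 in WT. A gene that this rule selects is not reported here and was not replaced. The ratio interval alone was tried on simulated Poisson counts drawn at the mean levels of clusters 0 to 5. That setting leaves out differences between cells and libraries, so it cannot show how the interval behaves under them. Promoters were RefSeq entries matched by symbol; Nfkb1 and Relb had none. The members and lists were chosen with earlier results of these data known. Python 3.11.15 with numpy 2.4.6, scipy 1.17.1, pandas 2.3.3 and matplotlib 3.10.9 was used.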

Additional observations from a re-analysis of the deposited data

Results flagged for a closer look

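Rel had opposite values in clusters 6 and 11: a log2 ratio of 0.15 (5XFAD over WT) in cluster 6, led by Ighg2b and Jchain, and of -0.86 in cluster 11, led by Klra6 and Klra7, each with a counting interval on its own side of 0. Nfkbia likewise had a log2 ratio of 1.16 in cluster 14, led by Dapl1 and Lef1, and of -0.33 in the ILC3-like cluster 16. What drew attention is that the values of the same gene lie on opposite sides of 0 in different clusters of the same libraries. With 1 library per genotype the differences between clusters were not tested.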

How the results depend on the processing

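No paired analysis was possible because each genotype is 1 pooled library and the labels carry no replicate numbers; for the same reason no replicate could be left out. In clusters 0 to 5 the count of lower members was 1 under each alternative run except a threshold of 1 on the log2 scale, which gave 0. The ratio of Nfkb1 there was -0.31 with the median of ratios set to 0, beside -0.43. The share of cells with Nfkbid, lower by 1.33 percentage points in 5XFAD after thinning, was higher by 0.083 points without thinning. Over 98 ratios of members in clusters, 615 alternative values gave 11 calls lost and 17 gained, and 44 had the opposite sign. The count of lower pathway genes lay between 16 and 30, beside 22. Nfkb1 was lower in all 17 clusters under each of the 6 alternatives run for that count, and Tnfaip3 in 14 to 16. Leaving out cluster 4 was chosen after seeing the data. The main limits are 1 library per genotype, the different highest number of genes per cell seen in each library, and depth, since 10 of 153 ratios in single clusters had under 50 UMIs.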
